A study of Mus musculus with 6 samples.

Results

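Genes of the Six-family, Eya and Dach groups encode a set of transcription regulators that act together in organ formation, and 9 of them were followed here in expandable cardiovascular progenitors made from mouse fibroblasts. The 9 genes, Six2, Six4, Six5, Eya1, Eya2, Eya3, Eya4, Dach1 and Dach2, were taken by name from the 53801 genes of the count files, and other Six-family paralogs were not analysed here. After removal of genes with low counts, 15143 genes were tested, among them 8 of the 9. Dach2 had too few counts.

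The cells were chemically induced cardiovascular progenitor cells (ciCPCs), wild type and of a mixed C57BL/6 and 129J/SvE strain background. All of them grew in the same medium with BMP4, Activin A, CHIR99021 (a GSK3 inhibitor that turns on the Wnt pathway) and SU5402 (an inhibitor of FGF receptors). RNA from passage 3 and from passage 20 was sequenced in 3 libraries each, and the design compares an early with a late passage of cells expanded from picked colonies. There was no culture without these factors and no starting fibroblast library in the comparison. Passage cannot be told apart from the culture, harvest or library batch that went with it.

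Six-family proteins bind DNA through a homeodomain and a neighbouring Six-type domain. Eya proteins do not bind DNA themselves; they join Six-family proteins as coactivators and also carry tyrosine phosphatase activity. Dach proteins bind corepressors and can turn Six-family targets down, and Pax factors often act upstream of or beside the group. The network is best known from eye, ear, kidney and skeletal muscle, and Eya1 also takes part with Tbx1 in the pharyngeal and second heart field mesoderm that builds the outflow tract.

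Libraries held 11387738 to 17721788 counts in genes. TMM factors, which correct for a few abundant genes taking up counts, were 1.12 to 1.13 at passage 3 and 0.873 to 0.917 at passage 20. Passage 20 replicate 3 stood apart from the other passage 20 libraries: its counts differed from theirs with a chi-square per degree of freedom of 10.6 and 8.72, against 1.75 to 2.63 for the other pairs within a passage. Calls of the members, and list counts, that change without it are given with both values. The labels do not say that replicates were separate cultures, and every p-value therefore reflects the scatter among these 6 samples alone, part of which may be technical. Levels are TMM-normalised CPM (counts scaled to a common library size), as mean ± SD with n = 3 per passage.

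Because the paralogs resemble each other, the sequences were first checked for stretches that a read could not place. No 50-base stretch was shared between the annotated transcripts of any pair of Six-family, Eya or Dach members. The longest exact runs in common between Six-family genes lie in the coding sequence and are shown because they mark the closest point of likeness in the family. Capitals mark the 26 bases found in all 3 Six-family genes (GRCm38 transcripts, 5′ to 3′).
Six2 and Six4: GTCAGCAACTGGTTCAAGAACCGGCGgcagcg
Six2 and Six5: GTCAGCAACTGGTTCAAGAACCGGCG
Six4 and Six5: cagGTCAGCAACTGGTTCAAGAACCGGCG
The shared run was 32 bases for Six2 and Six4, 29 for Six4 and Six5 and 26 for Six2 and Six5. Among the Eya genes the longest shared run, between Eya2 and Eya3, was 29 bases and is shown for comparison with the Six-family runs.
Eya2 and Eya3: ggtgtggactggatgaggaaactggcctt
No exon of a member overlapped an exon of another annotated gene, although the spans of Eya1, Eya2, Eya4, Dach1 and Dach2 overlap 8 small RNA, pseudogene or noncoding genes.

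Of the 9 genes, 5 fell between passage 3 and passage 20: Six5, Eya1, Eya2, Eya4 and Dach1. None rose (quasi-likelihood test of edgeR, Benjamini-Hochberg adjustment over all genes tested, threshold 0.05). At an unadjusted p under 0.05 and by DESeq2 the count of rises was also 0. Six2, Six4 and Eya3 did not pass, and Dach2 was not tested. Much of the transcriptome differed between the passages: 74.3% of the genes tested were called, 37.3% as lower and 37% as higher, so calls among the members stand on a high background. Of the 5 genes that fell, 4 fell at least 2-fold, which 14.3% of all genes tested did, while 13.4% rose by as much. Eya2, 1 of these 4, passed the low-count filter only through passage 3, so it adds little to these counts or to the median that follows. The median log2 fold change of the 8 tested members was -1.14, and that of all genes tested was -0.01. All 5 had groups that did not overlap, as did 77.5% of genes tested. In bulk RNA, fewer cells of a type and less RNA per cell cannot be told apart.

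Without passage 20 replicate 3, 6 members fell, with Six2 added, and 1, Eya3, rose. With library sizes alone as the scaling, which shifts the all-gene median from -0.012 to -0.34 on the log2 scale, 7 members were called lower, Six2 and Eya3 among them. That scaling also split the calls of all genes into 3528 higher and 8273 lower, in place of 5604 and 5641.

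**Figure D1:**
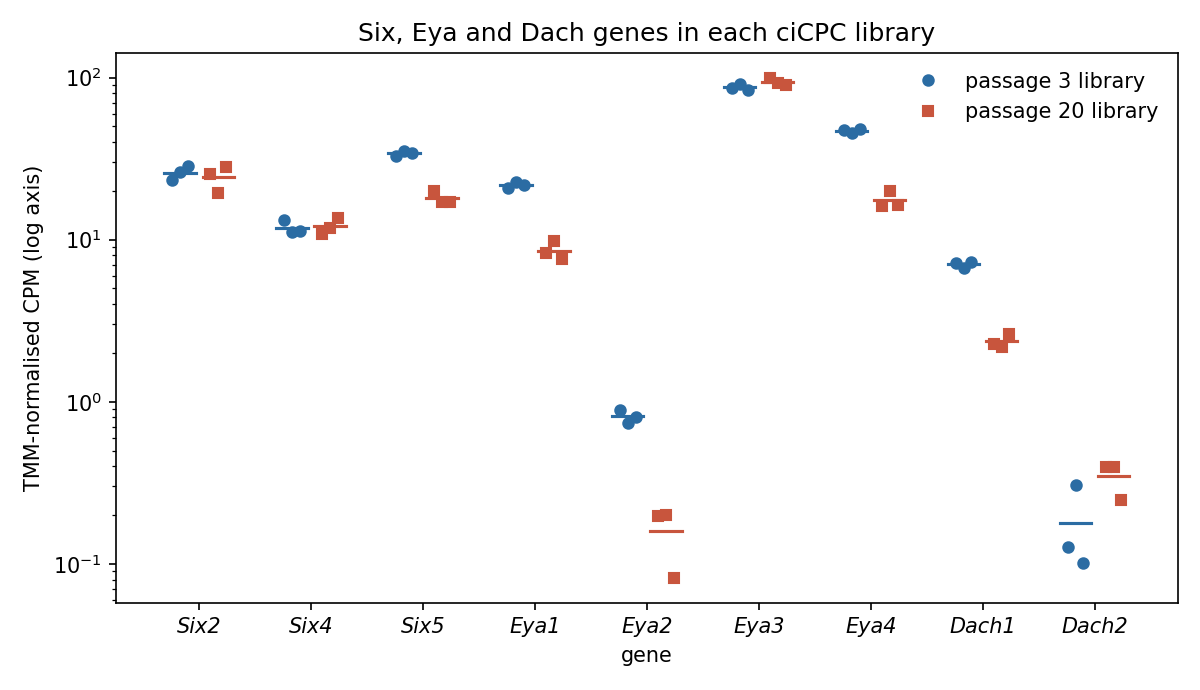
Level of each Six-family, Eya and Dach gene in each library, in TMM-normalised CPM on a log axis; circles are passage 3 libraries, squares are passage 20 libraries and short lines are group means. Six5, Eya1, Eya2, Eya4 and Dach1 have all 3 passage 20 libraries below all 3 passage 3 libraries, whereas the points of Six2, Six4, Eya3 and Dach2 overlap.

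Among the Six-family members, Six5 was the 1 that fell. Six5 (ENSMUSG00000040841, chr7:19094594-19098549, plus strand, GRCm38) lies beside Dmpk in the region of the myotonic dystrophy repeat. Its levels were 32.9, 35.3 and 34.4 CPM at passage 3 and 20.0, 17.2 and 17.2 CPM at passage 20. All late libraries lay below all early ones, by a wide gap relative to the spread within each passage. The fall was 1.89-fold, a log2 fold change of -0.92 ± 0.09 (SE), with an adjusted p of 2.5e-06 in edgeR's quasi-likelihood test. Of all genes tested, 16.1% had a lower log2 fold change.

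Six2 (ENSMUSG00000024134, chr17:85684277-85688274, minus strand), which keeps kidney nephron progenitors undifferentiated and is also found in head and limb mesenchyme, gave 23.2, 26.2 and 28.3 CPM at passage 3. At passage 20 it gave 25.5, 19.3 and 27.9 CPM, so the groups overlapped, with passage 20 replicate 2 as the lowest of the 6 libraries. The log2 fold change was -0.09 ± 0.13 (SE), with a 95% interval of -0.38 to 0.19 and an adjusted p of 0.527 in edgeR's quasi-likelihood test. Any 2-fold change lies outside that interval, but the value rested on single libraries. Without passage 20 replicate 3 Six2 was lower, at -0.23 (adjusted p = 0.0439, edgeR), and without passage 20 replicate 2 the value was 0.045. With library sizes alone it was -0.42 (adjusted p = 0.0153, edgeR).

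Six4 (ENSMUSG00000034460, chr12:73099609-73113456, minus strand), a partner in muscle formation, was at 13.2, 11.1 and 11.3 CPM at passage 3 and at 10.9, 11.8 and 13.6 CPM at passage 20. Both passages covered nearly the same range. The log2 fold change was 0.04 ± 0.12 (SE), with a 95% interval of -0.23 to 0.30 and an adjusted p of 0.793 in edgeR's quasi-likelihood test. Its sign turned negative with upper-quartile factors, at -0.04, and with library sizes alone, at -0.29.

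Among the coactivators, Eya1, Eya2 and Eya4 fell and Eya3, the member with the highest level, did not pass. Eya4 (ENSMUSG00000010461, chr10:23102963-23350786, minus strand), a gene of inherited deafness and dilated cardiomyopathy, gave 47.2, 45.8 and 48.4 CPM at passage 3 and 16.1, 20.1 and 16.4 CPM at passage 20. The early libraries were within a few CPM of each other and all far above the late ones. The fall was 2.69-fold (log2 fold change -1.43 ± 0.09 SE, adjusted p 1.07e-07, edgeR's quasi-likelihood test), the smallest adjusted p of the members. Only 8.39% of genes tested had a lower log2 fold change.

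Eya1 (ENSMUSG00000025932, chr1:14168954-14310235, minus strand), the gene of branchio-oto-renal syndrome, was at 20.8, 22.7 and 21.8 CPM at passage 3. At passage 20 it was at 8.22, 9.75 and 7.56 CPM, with no overlap between passages. It fell 2.57-fold, with a log2 fold change of -1.36 ± 0.11 (SE) and an adjusted p of 8.04e-07 in edgeR's quasi-likelihood test. The 95% intervals of Eya1 (-1.60 to -1.12) and Eya4 (-1.63 to -1.23) overlap, and a difference between their falls was not tested.

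Eya2 (ENSMUSG00000017897, chr2:165595032-165771727, plus strand), known from muscle progenitors and cranial placodes, was close to the detection limit. It had 14, 12 and 16 counts at passage 3 and 2, 2 and 1 counts at passage 20. Its mean level was 0.812 ± 0.074 CPM at passage 3 and 0.16 ± 0.0671 CPM at passage 20. It passed the low-count filter only through passage 3, so it had to differ, and its call adds little to the count of falls. The log2 fold change was -2.32 ± 0.46 (SE), with an adjusted p of 0.000808 in edgeR's quasi-likelihood test. The ratio of pooled counts, passage 3 over passage 20, was 5.23, with a 95% counting interval of 2.07 to 16.9 that covers counting error only. On the authors' deposited log2 values the change was -0.75, a smaller figure, and with a minimum of 1 CPM in 3 libraries Eya2 was not tested.

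Eya3 (ENSMUSG00000028886, chr4:132638987-132724765, plus strand), the most widely expressed Eya gene, gave 86.5, 91.0 and 83.6 CPM at passage 3 and 99.5, 93.0 and 90.3 CPM at passage 20. The passages overlapped at passage 3 replicate 2 and passage 20 replicate 3. The log2 fold change was 0.11 ± 0.06 (SE; 95% interval -0.02 to 0.25) with an adjusted p of 0.108 in edgeR's quasi-likelihood test. Its call depended on the libraries used and on the scaling. Without passage 20 replicate 3 it was called higher, at 0.13 (adjusted p = 0.0275, edgeR). With library sizes alone its direction turned and it was called lower, at -0.22 (adjusted p = 0.00542, edgeR). Under every alternative run, its change stayed far smaller than those of Eya1 and Eya4.

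Of the corepressor genes, Dach1 fell and Dach2 was barely detected. Dach1 (ENSMUSG00000055639, chr14:97786853-98169765, minus strand), known from limb and eye and from coronary artery growth, gave 7.16, 6.65 and 7.28 CPM at passage 3 and 2.28, 2.19 and 2.63 CPM at passage 20. The highest late library stood below the lowest early one by more than the range of either group. The fall was 2.95-fold (log2 fold change -1.56 ± 0.16 SE, adjusted p 4.51e-06, edgeR's quasi-likelihood test), and 7.24% of genes tested had a lower log2 fold change.

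Dach2 (ENSMUSG00000025592, chrX:113297510-113836386, plus strand), a paralog studied in muscle and limb, had 2, 5 and 2 counts at passage 3 and 4, 4 and 3 counts at passage 20. The pooled ratio, passage 20 over passage 3, was 1.96, with a 95% counting interval of 0.739 to 5.36 for counting error only. A difference between the passages was not detectable at this depth.

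**Figure D2:**
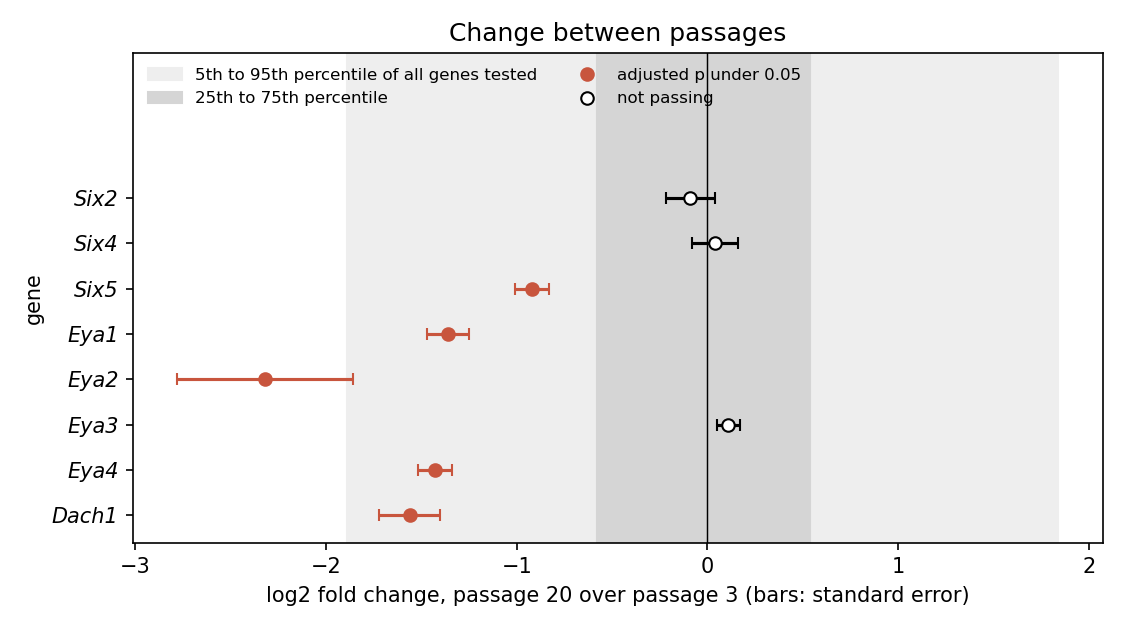
Log2 fold change of each tested member, passage 20 over passage 3, with bars for the standard error; filled points passed an adjusted p of 0.05 and open points did not, and the bands give the 25th to 75th and the 5th to 95th percentile of all 15143 genes tested. Six5, Eya1, Eya4 and Dach1 lie left of the inner band, which runs from -0.58 to 0.54, and the value of Eya2 lies left of the outer band, which starts at -1.89.

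Compared per kb of merged exons, the members covered a wide range of levels. Eya3 was highest at both passages, with 15.4 ± 0.657 CPM per kb at passage 3 and 16.7 ± 0.838 at passage 20. Six2 and Six5 came next at passage 3, at 12.2 ± 1.22 and 11.4 ± 0.406 CPM per kb, and their libraries overlapped. At passage 20 the pair had separated, with Six2 at 9.1 to 13.2 CPM per kb and Six5 at 5.71 to 6.65. Eya4 followed with 5.0 ± 0.142 CPM per kb at passage 3 and 1.86 ± 0.236 at passage 20, and then Eya1 with 2.79 ± 0.125 and 1.09 ± 0.143. Six4, at 1.09 ± 0.104 and 1.12 ± 0.129 CPM per kb, stood below Eya1 at passage 3 and overlapped it at passage 20. Dach1 had 0.961 ± 0.0455 CPM per kb at passage 3 and 0.323 ± 0.032 at passage 20. Eya2, at 0.274 and 0.0539 CPM per kb, and Dach2, at 0.0181 and 0.0351, closed the order, and their passage 20 libraries overlapped.

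The make-up of each family was described by the share of each paralog in the family's summed level. Eya3 accounted for 65.6 ± 1.22% of the summed Eya level per kb at passage 3 and for 84.7 ± 1.82% at passage 20, a difference of 19.1 percentage points. Over the same passages the share of Eya4 went from 21.3 ± 1.12% to 9.46 ± 1.18%. The share of Eya1 went from 11.9 ± 0.386% to 5.53 ± 0.64%, and that of Eya2 from 1.17 ± 0.127% to 0.271 ± 0.106%. None of these Eya shares overlapped between passages, so the Eya pool at the late passage was largely Eya3. Since shares of a family add to a fixed whole, they are not independent of each other. Their size also depends on the length used. Merged exons and the longest transcript are 7808 and 4366 bases for Eya1 and 9419 and 5304 for Eya4. For Eya3 the lengths are closer, at 5647 and 5186 bases, so its share is smaller per kb of the longest transcript.

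Among the Six-family genes, the share of Six2 was 49.4 ± 2.15% at passage 3 and 61.2 ± 4.08% at passage 20. The share of Six5 was 46.1 ± 1.61% and 32.7 ± 3.88%, with no overlap between passages. Six2 and Six5 thus had near-equal shares in the early libraries, and Six2 had the larger share in each late library. Six4 held 4.46 ± 0.692% and 6.06 ± 0.894%, with overlapping libraries (exact permutation p 0.2, two-sided). Dach1 made up 98.1 ± 1.26% of the summed Dach level at passage 3 and 90.1 ± 2.98% at passage 20, the rest resting on the few counts of Dach2. With 3 libraries against 3 the smallest p that an exact two-sided permutation test can give is 0.1, which the other 8 of the 9 shares reached (0.113 after Benjamini-Hochberg adjustment over the 9). No share can therefore pass 0.05 in this design.

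The summed level per kb was lower in all 3 passage 20 libraries for each family. It was 24.7 ± 1.43 CPM per kb at passage 3 and 18.6 ± 2.32 at passage 20 for the Six-family genes, a ratio of 1.33. For the Eya genes it was 23.5 ± 0.583 and 19.7 ± 0.885, a ratio of 1.19. For the Dach genes it was 0.979 ± 0.0341 and 0.358 ± 0.0235, a ratio of 2.73. The Six-family and Eya sums moved less than Eya1, Eya4 or Six5 did, since Six2 and Eya3 carry much of them.

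**Figure D3:**
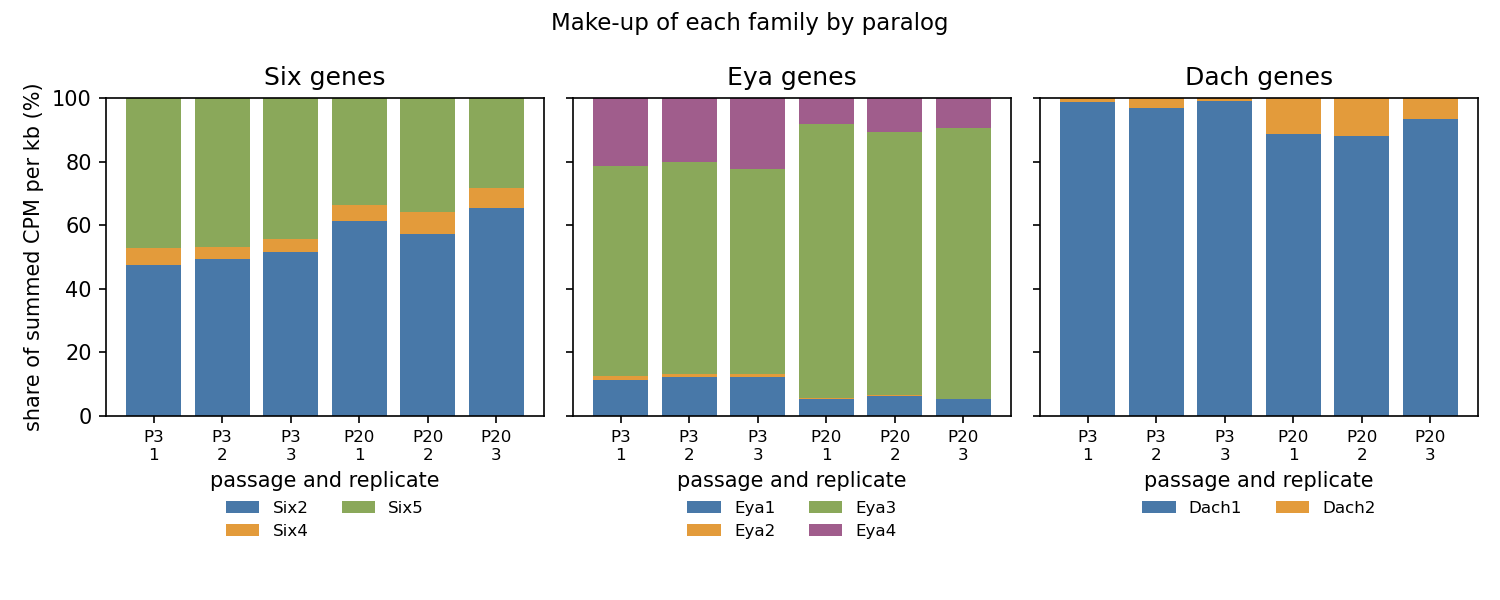
Share of each paralog in the summed CPM per kb of its family, in percent, with 1 stacked bar per library (passage above, replicate number below). In the Eya panel Eya3 fills 64.3 to 66.8% of each passage 3 bar and 82.7 to 86.2% of each passage 20 bar, and in the Six-family panel Six2 goes from 47.4 to 51.7% up to 57.2 to 65.4%.

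The RefSeq table for GRCm38.p6 held start-site windows for 7 of the 9 members, 10 windows in all, each running from 250 bases before a start to 50 after it. All 10 had at least the median number of CG dinucleotides of the 32851 windows in the table, which was 7. The windows were searched on both strands for the MEF3 element TCAGGTTTC, the known Six-family binding site of muscle promoters, for the GC box CCCCGCCC of Sp and Klf factors and for the TATA box TATAAA; the motifs were chosen after the windows had been seen. None of the 3 motifs overlapped another in these windows. The MEF3 letters occur in 141 of 32851 windows (0.429%), the GC box in 17.6% and the TATA box in 13.6%.
The windows of Six4, Eya3 and Eya4 are shown: Six4 for the 1 MEF3 match among the members, and Eya3 and Eya4 as paralogs with the same motif in their windows and different changes between passages. Sequences are on the strand of the gene, 5′ to 3′, with the motif in capitals.
Six4, chr12:73113196-73113495, minus strand, with the MEF3 letters on the opposite strand, read here as GAAACCTGA: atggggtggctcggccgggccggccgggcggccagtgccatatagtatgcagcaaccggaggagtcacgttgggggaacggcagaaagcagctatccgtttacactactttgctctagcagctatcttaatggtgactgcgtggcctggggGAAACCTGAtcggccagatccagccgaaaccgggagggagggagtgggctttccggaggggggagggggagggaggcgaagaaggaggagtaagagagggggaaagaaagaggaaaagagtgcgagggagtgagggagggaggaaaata
Eya3, chr4:132638796-132639095, plus strand, with a GC box: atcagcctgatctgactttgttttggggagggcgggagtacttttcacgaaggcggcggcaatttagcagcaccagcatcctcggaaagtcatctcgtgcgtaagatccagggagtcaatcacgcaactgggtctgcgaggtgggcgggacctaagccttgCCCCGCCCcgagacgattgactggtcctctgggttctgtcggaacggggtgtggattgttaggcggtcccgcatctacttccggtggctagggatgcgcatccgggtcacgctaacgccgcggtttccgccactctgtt
Eya4, chr10:23349894-23350193, minus strand, with a GC box: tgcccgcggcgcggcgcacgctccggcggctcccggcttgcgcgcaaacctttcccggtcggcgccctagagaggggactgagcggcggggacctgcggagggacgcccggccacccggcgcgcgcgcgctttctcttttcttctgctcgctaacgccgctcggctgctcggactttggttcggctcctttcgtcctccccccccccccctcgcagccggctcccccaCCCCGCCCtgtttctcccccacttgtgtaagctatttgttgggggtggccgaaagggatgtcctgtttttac
The MEF3 letters of Six4 begin 99 bases before the start site of the window shown, and the window of another annotated Six4 start does not hold them. Six4 did not pass the test between passages. The GC box begins 89 bases before the start in the Eya3 window and 22 bases before it in the Eya4 window shown. In the window of another annotated Eya4 start the same GC box begins 75 bases before that start. Eya4 fell 2.69-fold and Eya3 did not pass, so these letters were present in the window of a gene that fell and in that of a gene with no call. A match here is a string of letters and not a measured binding site.

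The gene bodies also differ in size. Six2, Six4 and Six5 span 4, 13.8 and 3.96 kb, whereas Eya1, Eya2, Eya4 and Dach1, which fell, span 141, 177, 248 and 383 kb. Eya3, with no call, spans 85.8 kb, and Dach2, with few counts, spans 539 kb. Among all tested coding genes, the 786 with a span over 200 kb had a median log2 fold change of -0.119 and 44% of them were called lower, against -0.0836 and 39.3% for genes under 10 kb. In the classes between, up to 50, 100 and 200 kb, the medians were 0.00349, 0.0358 and 0.0066 and the shares called lower 36.6%, 36.7% and 36.2%; Eya1 and Eya2 belong to the last of these. Eya4 and Dach1 belong to the longest class, and their log2 fold changes of -1.43 and -1.56 are far below its median. The part of gene length in the members' changes was not tested.

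The nearest tested coding genes on both sides of each member were read beside it. Of 18 such neighbours, 8 were higher, 4 lower and 6 did not pass (edgeR's quasi-likelihood test). Around the 5 members that fell 5 of 10 neighbours were higher and 2 lower. Among all genes tested 37% were called higher and 37.3% lower, so these few calls say little about whole neighbourhoods. Dmpk, 0.773 kb from Six5, had 77.1 ± 4.19 CPM at passage 3 and 70.1 ± 8.38 CPM at passage 20 and did not pass, with a log2 fold change of -0.14 and an adjusted p of 0.158 (edgeR), although upper-quartile factors gave -0.22 and a call. Fbxo46, on the other side of Six5, was at -0.30 with no call, and at -0.67 with a call once passage 20 replicate 3 was left out. Six5 therefore had the larger value of the 3 genes at this locus in the fit of all libraries.

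Eya4 lay between Tbpl1 (log2 fold change 0.54) and Rps12 (0.89), which both rose. Beside Eya1, Lactb2 rose (0.36), although not with library sizes alone, and Kcnb2 fell (-0.99). Beside Eya2, Slc2a10 fell (-0.52) and Zmynd8 was higher (0.30), or at -0.034 with library sizes alone. Beside Dach1, Mzt1 rose (0.80) and Pcdh9 was at 0.09 with no call. Neighbours called higher and lower thus both stood beside members that fell, at distances from 12.4 kb for Zmynd8 to 977 kb for Kcnb2. Around the members without a fall, Mnat1 (0.55) rose beside Six4 and 4930447C04Rik (-0.67) fell there. Beside Eya3, Xkr8, 0.132 kb away, rose (0.51, with no call under library sizes alone) and Dnajc8 fell (-0.17). Camkmt (-0.18) and Srbd1 (-0.10) beside Six2 did not pass, although with library sizes alone both were called lower (-0.51 and -0.43), nor did Pabpc5 (-0.27) beside Dach2. Chm, on the other side of Dach2, was called higher at 0.19, but the call was lost with each of 5 of the 6 libraries left out (all but passage 20 replicate 3).

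Genes that work with the network were described from lists of known partners. Of 8 Pax factors, 4 were tested, of which 1 was higher and 3 fell, with a median log2 fold change of -1.57. All 3 that fell passed the low-count filter only through passage 3, so their calls and this median add little. Pax9, a factor of pharyngeal pouches and skeleton, fell from 2.12 to 0.622 CPM (log2 fold change -1.78, adjusted p 0.00035, edgeR), or by 0.89 on the deposited log2 scale. Pax5, a B cell and midbrain factor, had 74 counts at passage 3 and 0 at passage 20, at least 15.4-fold lower against a floor of 3 counts over the group. Pax3, an upstream factor of Six-family and Eya genes in muscle precursors, was at 1.69 and 3.22 CPM, with a log2 fold change of 0.95 and an adjusted p of 0.026 (edgeR). The Pax3 call was lost with library sizes alone (0.115) and without passage 3 replicate 2 (0.0808), passage 3 replicate 3 (0.105) or passage 20 replicate 1 (0.12), as adjusted p in edgeR. Pax8 had 0 counts in all libraries.

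The 14 cofactors and corepressors of Six-family and Dach proteins moved in both directions, 6 higher and 5 lower with 3 not passing, and their median log2 fold change was 0.01. With library sizes alone the same list gave 2 higher and 10 lower, and with upper-quartile factors 3 and 7, so the directions of its small changes depend on the scaling. Without passage 20 replicate 3 it gave 6 and 6. Sobp, the mouse relative of the fly Six-family partner sine oculis binding protein, fell 3.02-fold from 12 to 3.93 CPM (adjusted p 1.42e-06, edgeR). Skil, a relative of Dach that also works with corepressors, rose 1.72-fold from 114 to 196 CPM (adjusted p 7.86e-08, edgeR). Sin3a, a corepressor scaffold, rose 1.42-fold and Tle3, a Groucho-type corepressor, fell 1.27-fold. Sobp thus had a fold change of the size seen for Dach1, 2.95-fold, while the general corepressors changed by less than 2-fold.

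The list of kidney progenitor partners held 11 genes, of which 3 rose, 7 fell and 1 did not pass, with a median log2 fold change of -1.29. Some of the 7, Hoxc11 and Meox2 among them, passed the low-count filter only through passage 3, and Ret passed it only through passage 20. Their calls add little to these counts or to the median. With DESeq2, upper-quartile factors or library sizes alone 2 rose, as the marginal call of Wt1 was lost; it was also lost without passage 3 replicate 1, passage 3 replicate 3 or passage 20 replicate 1 (adjusted p 0.137, 0.119 and 0.186, edgeR). Paralog group 11 Hox proteins form a complex with Eya1 and Pax2 at the Six2 gene in the kidney. Hoxd11 fell 10.8-fold, from 21.1 to 1.91 CPM, and Hoxc11 fell 36.6-fold, from 10.5 to 0.275 CPM, the latter with 9 counts in all at passage 20. On the authors' deposited log2 values the folds were smaller, 6.77 for Hoxd11 and 8.4 for Hoxc11. Eya1 fell with them, at -1.36, whereas Six2, at -0.09, did not pass. Cited1, a marker of early nephron progenitors, rose 3.58-fold from 3.05 to 11.1 CPM, and Ret, the receptor for Gdnf, rose 3.62-fold from 0.417 to 1.52 CPM, or 1.75-fold on the deposited log2 values. Gdnf itself, a target of the Eya1 complex in the kidney, was at 9.63 and 11.3 CPM and did not pass (adjusted p 0.125, edgeR). Without passage 20 replicate 2 it was called higher (log2 fold change 0.36), and with library sizes alone its value was -0.085.

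Of 7 muscle regulators, 3 were tested, with 1 higher, 1 lower and 1 not passing. Myf5 and Myf6, muscle determination genes, had 0 counts. Mef2c, which serves both heart and skeletal muscle, rose 2.68-fold from 39.1 to 105 CPM, and Met, a receptor of migrating muscle precursors, fell 1.5-fold from 14.4 to 9.56 CPM. Myog, a target with a MEF3 element, was at 0.594 and 0.907 CPM and did not pass (adjusted p 0.127, edgeR). Six4, whose product binds MEF3 elements, did not pass either, at 0.04.

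All 7 second heart field genes passed, 5 higher and 2 lower, with a median log2 fold change of 0.98. Tbx1, which acts upstream of the Eya genes in the pharyngeal region, fell 25.1-fold from 11.1 to 0.44 CPM, with 14 counts in all at passage 20, and Isl1, which marks progenitors of that field, fell 8.44-fold from 63.2 to 7.45 CPM. The fold of Tbx1 was 39.9 without passage 20 replicate 1 and 7.67 on the deposited log2 values. Tbx1 also passed the low-count filter only through passage 3, so its fall adds little to the list count. With library sizes alone 4 of the 7 genes were higher and 2 lower. Eya1 fell beside them, at -1.36. Fgf8, a signal of the same field, rose 2.77-fold from 7.32 to 20.3 CPM and Foxc2 rose 5.25-fold, opposite in sign to Eya1 and Eya4.

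Of 9 proliferation genes linked to the network, 5 were higher, 2 lower, 1 did not pass and 1 was not tested. With library sizes alone 3 were higher and 3 lower. Ccnd1, a cyclin gene that Dach1 is known to repress, fell 3.57-fold from 23.8 to 6.57 CPM, in the same direction as Dach1. Slc12a2, an ion transporter gene regulated by Six-family factors, fell 1.57-fold. The cell cycle inhibitor genes Cdkn1a and Cdkn1b rose 3.51-fold and 2.84-fold. The other genes called higher were Myc (2.56-fold), Ccna2 (1.37-fold) and Ezr (1.21-fold), so the list holds no single direction.

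The Eya phosphatases act on H2AX, the histone variant encoded by H2afx, in the DNA damage response. H2afx fell 1.77-fold from 64.7 to 36.4 CPM (adjusted p 0.0014, edgeR). Of the 5 genes on this list 2 were higher, 2 lower and 1 did not pass; without passage 20 replicate 3, 2 were higher and 3 lower, and with library sizes alone 0 and 3. Atm, a damage kinase gene, was 1.29-fold lower (adjusted p 0.017, edgeR), and without passage 3 replicate 1 its adjusted p was 0.0597. Apbb1 was 1.31-fold and Mapk8 1.18-fold higher, but with library sizes alone neither was called, and Mapk8 changed sign. Without passage 3 replicate 3 the adjusted p of Mapk8 was 0.0672 (edgeR).

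**Figure D4:**
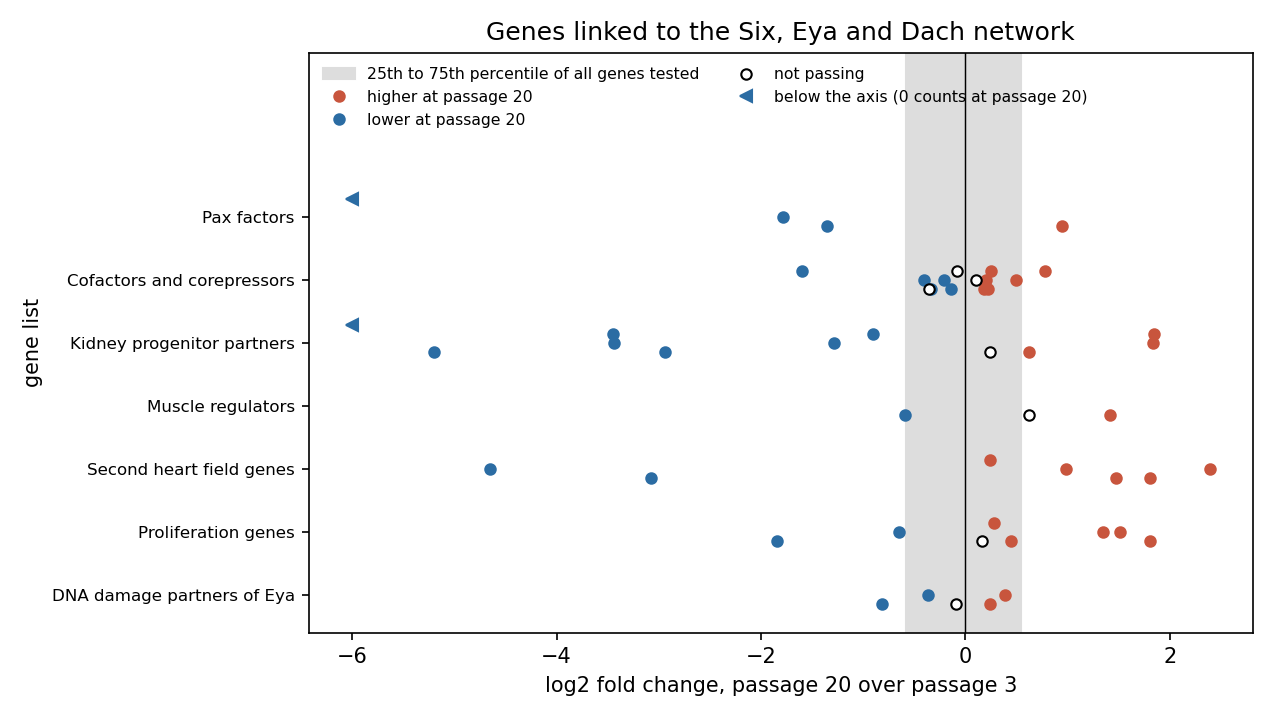
Log2 fold change, passage 20 over passage 3, of the tested genes on each list of network partners; each point is a gene, filled where its adjusted p was under 0.05, and the band is the 25th to 75th percentile of all genes tested. Arrowheads at the left edge stand for Pax5 and Meox2, which had 0 counts at passage 20 and whose fitted values are not to scale. Kidney progenitor partners spread from -5.20 for Hoxc11 to 1.85 for Ret, whereas most cofactors lie near 0. Hoxc11 and Ret each passed the low-count filter only through the passage where they were higher.

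Markers of the labelled cell type and of other cells were read beside the members. Of 8 cardiac progenitor markers, 4 were higher and 4 lower, and all 8 had counts in every library. With library sizes alone 3 of them were higher and 4 lower. The summed level of the 8 was 763 to 786 CPM at passage 3 and 642 to 710 at passage 20. The largest part at passage 3 was Pdgfra, which is not specific to these cells and fell from 328 to 134 CPM. Nkx2-5 rose from 1.15 to 5.24 CPM, while Isl1 fell from 63.2 to 7.45 CPM. Of 7 fibroblast and matrix genes, 6 were higher and 1 lower, with sums of 13395 to 14110 and 27932 to 33250 CPM. With upper-quartile factors or library sizes alone 5 were higher and 1 lower. Skeletal muscle markers, in whose cells Six4, Eya1, Eya2 and Eya4 are also found, summed to 3.93 to 5.67 and 18 to 21.2 CPM, with Myf5 at 0. Of 7, 3 were tested and 2 of them, Acta1 and Myh3, were higher, while Myog had no call. Most of both sums came from Acta1 (2.03 and 11.6 CPM) and Myh3 (1.84 and 6.92 CPM). Pax7 (12 counts at passage 3 and 1 at passage 20), Ckm (4 and 1) and Myod1 (13 and 10) were not tested. Of 6 kidney mesenchyme markers, all shared with the partner list above, 2 (Cited1 and Wt1) were higher and 3 lower, with sums of 70.3 to 73.9 and 36.9 to 43.7 CPM; 1 was higher with DESeq2, upper-quartile factors or library sizes alone.

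Of 7 placode and sensory ganglion markers, 2 were tested, 1 higher and 1 lower, with sums of 55.3 to 59.9 and 34.2 to 55.7 CPM and with Pax8, Neurog1 and Neurod1 at 0. With library sizes alone 0 were higher and 1 lower. Of 5 tendon and limb connective tissue markers, 4 were tested, 1 higher and 3 lower, with sums of 290 to 299 and 158 to 161 CPM. Most of that sum, and 1 of the 3 falls, was Tcf4 (233 and 124 CPM), which is not a marker of these tissues. Neither the sum nor that fall therefore bears on them. Scx, a tendon gene, was higher (5.65 and 25.6 CPM), whereas Osr2 (36.3 and 5.63 CPM) and Mkx (19.7 and 4.33 CPM) were lower. Tnmd, with 29 counts at passage 3 and 2 at passage 20, was not tested. Cartilage markers summed to 111 to 126 and 78.7 to 96.6 CPM, with 1 higher and 2 lower of 4. The 1 higher was Acan, a cartilage matrix gene, at 0.935 and 13.9 CPM, which passed the low-count filter only through passage 20. Sox9 (59.8 and 35.6 CPM) and Col2a1 (59.8 and 35.5 CPM) were lower. Matn1, with 0 counts at passage 3 and 1 at passage 20, was not tested. Of 3 endothelial markers 1 was higher, with sums of 6.59 to 8.34 and 8.45 to 8.71 CPM, but with library sizes alone 0 were higher and 1 lower, and with upper-quartile factors 1 and 1. All 3 epithelial markers were higher, with sums of 49.7 to 53.9 and 98.9 to 110 CPM. Of 3 immune markers none was called, with sums of 5.11 to 6.34 and 5.26 to 7.13 CPM and with Ptprc at 0. The part of other cell types in the members' changes was not tested.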

How the data were processed

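For each of the 6 libraries the authors deposited a file of whole-number gene counts and a file of log2 values. How the log2 values were made is not stated; genes with 0 counts lie above 0 in them and their levels do not follow the counts from gene to gene, so they were used for changes only. DESeq2, HTSeq, SAMtools and HISAT2 2.0.5 are named with GRCm38 in the submitters' processing notes. What each tool did, the annotation and strandedness are not given in the sources used.

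Gene names came from the GENCODE annotation of GRCm38, which matched 53706 of 53801 identifiers. Genes were filtered with filterByExpr (15143 left), scaled with TMM factors and compared in edgeR 4.0.16 (quasi-likelihood test with robust fitting, Benjamini-Hochberg adjustment over all genes tested, threshold 0.05) in R 4.3.3. The common biological coefficient of variation was 7.05%. Standard errors are the log2 fold change over the square root of F, and 95% intervals use the t distribution with the test's degrees of freedom. Shares were compared by an exact two-sided permutation test. Promoter windows came from RefSeq (GRCm38.p6). The fit was checked on simulated data. Intervals of pooled counts cover counting error only, since no molecular identifiers are named.

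Groups follow the passage given in the labels. All 9 members are named, and from each partner list up to 2 genes per direction with the smallest adjusted p, and the nearest tested coding gene on each side of a member; Six-family paralogs other than the members were passed over. Genes with profiles closest to Eya2, also in the rule, are not given, since its profile rests on very few counts at passage 20. Gdnf, Myog, Meox2, Wt1, Pax8, Myf5, Myf6, Myc, Ccna2, Ezr and the marker genes were named after their values were seen. The members and lists were chosen with earlier results of these data known. Alternatives were other scalings (upper-quartile, RLE, library sizes only), other tools (limma-voom, DESeq2 1.42.0, limma 3.58.1 on the deposited log2 values), other filters (a minimum of 1 CPM in 3 libraries, or none), each library left out, a replicate block, a threshold of 0.01, and other length scalings for shares.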

Additional observations from a re-analysis of the deposited data

How the results depend on the processing

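The falls of Six5, Eya1, Eya4 and Dach1 kept their direction and their call under every alternative run, with log2 fold changes of -1.25 to -0.86, -1.69 to -1.21, -1.76 to -1.35 and -1.89 to -1.16. Eya2 kept its call wherever it was tested (-2.64 to -0.75). The number of members called lower was 4 with at least 1 CPM in 3 libraries, where Eya2 was not tested, and 7 with library sizes only. With library sizes only, 3528 genes were called higher in place of 5604, Six2 was at -0.42, Six4 at -0.29 and Eya3 at -0.22; Six4 was at -0.04 with upper-quartile factors. Leaving out 1 library at a time gave 5289 to 6103 genes higher and 5244 to 6266 lower, 0 to 1 members higher and 5 to 6 lower. In those fits Six2 ranged from -0.23 to 0.045, Six4 from -0.076 to 0.11 and Eya3 from 0.074 to 0.14. The fit with a replicate block called 5521 genes higher and 5582 lower, 0 members higher and 5 lower, and changed no member's call. Same-numbered libraries of the 2 passages had correlations of 0.0143, -0.0273 and 0.0454 between their deviations from the group means, so the replicate numbers were not taken to pair the samples. Among genes outside the members, library sizes only turned Chm to -0.14, Mapk8 to -0.093, Zmynd8 to -0.034, Pcdh9 to -0.24 and Gdnf to -0.085, and with 1 library left out Pcdh9 ranged from -0.12 to 0.39 and Pabpc5 from -0.51 to 0.07. Without division by length the share differences were 5.79 points for Six4, -0.387 for Eya2, 22.8 for Eya3 and -15.5 for Eya4, and per kb of the longest transcript they were -7.8 for Eya1, 23.2 for Eya3 and -14.6 for Eya4. The cause of these differences was not tested. Of 53 of the tested genes named outside the members, 34 kept call and direction under every alternative. Myc, Ccna2, Ezr, Pdgfra, Nkx2-5, Osr2, Mkx, Sox9 and Col2a1 were not counted among the 53. Depth limits Dach2 and Eya2 most.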
